A study of Mus musculus with 19 samples.

Results

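Unnamed assembled loci are stretches of transcribed genome that carry an assembly number beginning with XLOC in place of a gene symbol. Of the 38424 entries of the deposited expression table, 11588 had only such a number. Members were chosen by level, as the loci with at least 1 FPKM in at least 2 of the 19 libraries, where FPKM (fragments per kilobase of transcript and per unit of sequencing depth) is a level per length. This left 1236 loci after 6 others, described apart from these, were set aside. A further 10347 unnamed loci stayed below the floor, and 5410 of the unnamed loci were listed at 0 in every library. All levels below therefore describe loci selected for being measurable, and no count of members above the floor is a result. The loci nearest to the threshold, by their second-highest value, were XLOC_001950 at 1.00029, XLOC_024673 at 1.00047 and XLOC_005710 at 1.00096 FPKM just inside. Just outside lay XLOC_011807 at 0.996633, XLOC_008401 at 0.994965 and XLOC_012896 at 0.993664 FPKM.

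Mouse embryonic stem cells (ESCs) were differentiated in 2 ways after a hairpin RNA (sh) against 1 target, or a control hairpin, and messenger RNA was sequenced. In serum medium without LIF, the cytokine that keeps these cells undifferentiated, CJ7 cells of strain 129S4/SvJae gave 1 control and 2 shEvx1as libraries at day 4. CJ9 cells of the same strain gave, at day 4, a control and 2 shEVX1 libraries, then 2 control and 2 shFendrr libraries at day 5, and at day 6 a single control and a single shLhx1os library. In the serum-free medium N2B27 with 5 nM retinoic acid (RA), 46c cells, which carry a fluorescent reporter at Sox1, gave 2 control, 2 shNr2f1as, 1 shSox21os and 2 shPou3f3os libraries at day 4. EVX1 is a coding gene, and all the other targets are long noncoding RNAs named for a neighbouring developmental gene. Controls are titled shCtrl, although the design text of the series speaks of wild-type cells. What distinguishes the numbered libraries of a group (cultures, hairpin sequences or repeat preparations) is not in the labels, and each p-value covers no more than the spread among these samples. Cell line, medium and experiment changed together between the cultures and cannot be told apart.

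Transcript assembly can give a locus without a gene symbol where reads fall outside the known gene models, and also where they overlap one. Known sources of such loci in ESCs are long noncoding RNAs, transcripts that start at a promoter and run away from its gene, extended 3′ ends, retained introns, and copies of repeats or pseudogenes. Polyadenylated transcripts of the first kind are often restricted to 1 cell type, and some regulate the gene next to them.

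The cultures matched their labels on marker genes summed per library. The 6 primitive streak and mesoderm markers came to 178 to 499 FPKM in the 5 LIF-withdrawal controls and 2.25 to 4.08 FPKM in the RA controls, while the 6 neural markers came to 6.71 to 53.9 and 202 to 277 FPKM. Trophoblast markers also differed, at 63.9 to 254 against 3.73 to 4.05 FPKM, and so did endoderm markers, at 9.96 to 33.6 against 4 to 8.42. Pluripotency markers overlapped, as did fibroblast and feeder markers, at 10.6 to 50.3 against 9.75 to 11.2 FPKM. In these bulk libraries fewer cells of a type and less RNA per cell cannot be told apart. The targeted genes were lower in 3 comparisons without passing the adjusted test. The Evx1as entry 5730457N03Rik was at 0.354 and 0.29 against 1.66 FPKM (adjusted p = 0.728 by limma), Evx1 at 30.2 and 37 against 53.9 FPKM (adjusted p = 1.0), and Fendrr at 0.358 and 0.0768 against 1.1 and 1.49 FPKM (adjusted p = 0.0816). Members at 1 FPKM or more numbered 678 to 811 per library and made up 1.67% to 2.51% of all FPKM.

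The promoters of 3 genes next to members are shown because each bears on a result below: Apba3 stayed level while its adjoining locus changed, Tshz3 was higher in RA together with its locus, and Dhrs3 went against its locus. Apba3 encodes an adaptor protein of the X11 family, Tshz3 a zinc-finger transcription factor, and Dhrs3 a reductase that turns retinaldehyde back into retinol. The 300-base windows span the gene start, with most of their length before it, and are read 5′ to 3′ on the gene's strand (+ in each), and are RefSeq sequence on GRCm38.p6. They lie at chr10:81267922-81268221, chr7:36697868-36698167 and chr4:144892577-144892876 in that build, which is not the build of the loci. Capitals mark each CG dinucleotide, the site of DNA methylation in mammals, which is dense in the promoters of widely used genes.
Apba3: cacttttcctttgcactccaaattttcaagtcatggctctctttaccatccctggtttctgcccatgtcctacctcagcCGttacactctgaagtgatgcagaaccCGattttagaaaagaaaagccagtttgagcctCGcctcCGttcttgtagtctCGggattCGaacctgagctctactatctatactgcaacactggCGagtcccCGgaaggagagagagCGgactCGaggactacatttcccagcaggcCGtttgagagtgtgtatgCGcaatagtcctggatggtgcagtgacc
Tshz3: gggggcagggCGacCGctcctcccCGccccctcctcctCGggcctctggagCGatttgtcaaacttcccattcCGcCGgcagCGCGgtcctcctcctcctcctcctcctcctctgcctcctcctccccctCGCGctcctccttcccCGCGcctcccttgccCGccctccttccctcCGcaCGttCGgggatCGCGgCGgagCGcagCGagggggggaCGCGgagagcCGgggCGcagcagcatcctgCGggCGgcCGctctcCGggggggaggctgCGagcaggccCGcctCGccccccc
Dhrs3: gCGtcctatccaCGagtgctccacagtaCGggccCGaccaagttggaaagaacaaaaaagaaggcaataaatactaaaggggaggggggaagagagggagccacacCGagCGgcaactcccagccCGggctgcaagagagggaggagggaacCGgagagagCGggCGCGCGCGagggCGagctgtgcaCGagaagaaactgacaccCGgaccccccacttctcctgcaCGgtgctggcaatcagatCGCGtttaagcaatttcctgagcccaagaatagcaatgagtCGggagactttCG
The Apba3 window held 12 CG and was 50.3% G or C, the Tshz3 window 33 CG and 76% and the Dhrs3 window 21 CG and 58.7%. As many CG or more occurred in 39.6%, 8.6% and 24.8% of all 32851 windows. TATAAA, the core letters of the TATA box, was searched on both strands and occurred in none of these 3 windows and in 13.6% of all windows.

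Most members lay on or beside named genes. From positions in mm9, 694 of 1236 (56.1%) overlapped a named entry, 239 (19.3%) had one within 5 kb, 202 (16.3%) within 50 kb and 101 (8.2%) lay farther away. Of the overlapping loci, 361 were wholly inside the named entry, 45 spanned it and 118 touched 2 or more entries. The name "unnamed" thus describes the identifier and does not place a locus outside genes. Of nearest genes with a known class, 939 of 1055 encoded protein.

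Close neighbours sat more often before a gene than after it. Within 5 kb, and where the strand of the gene was known, 140 of 216 members (64.8%) were on its 5′ side, and within 1 kb it was 100 of 129 (77.5%). Among named entries with their nearest named neighbour within 5 kb, 2473 of 4929 (50.2%) lay on the 5′ side. Between 5 and 50 kb the 5′ side held 70 of 162 members. The table gives no strand for the loci themselves, so divergent and same-strand transcripts were not separated.

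Promoters beside a 5′ member were rich in CG. Of 138 genes with such a member, 104 had a RefSeq promoter. Taking each gene's window with most CG, the median was 27.5 CG, and 95.2% held 10 or more. The 53 matched genes with a member on the 3′ side had a median of 22 CG, and 77.4% held 10 or more. Named entries at the floor gave a median of 22 and 88% (9619 matched of 13701), and all 27025 promoter symbols a median of 8 and 45.8%.

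Members were short and low. Their length, from the first to the last base of the locus, was 251 to 1353851 bp with a median of 3418 bp, against 18712 bp for named entries at the floor. The median FPKM over 19 libraries had a median of 1.28 for members and 7.13 for named entries. Loci that overlapped a gene had a median of 1.88 FPKM, those within 5 kb 0.727, those 5 to 50 kb away 0.782 and those farther away 1.6. Of the overlapping loci, 416 of 694 were below the named entry they overlapped, 139 were at least 10 times lower and 53 were at least 10 times higher.

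**Figure D1:**
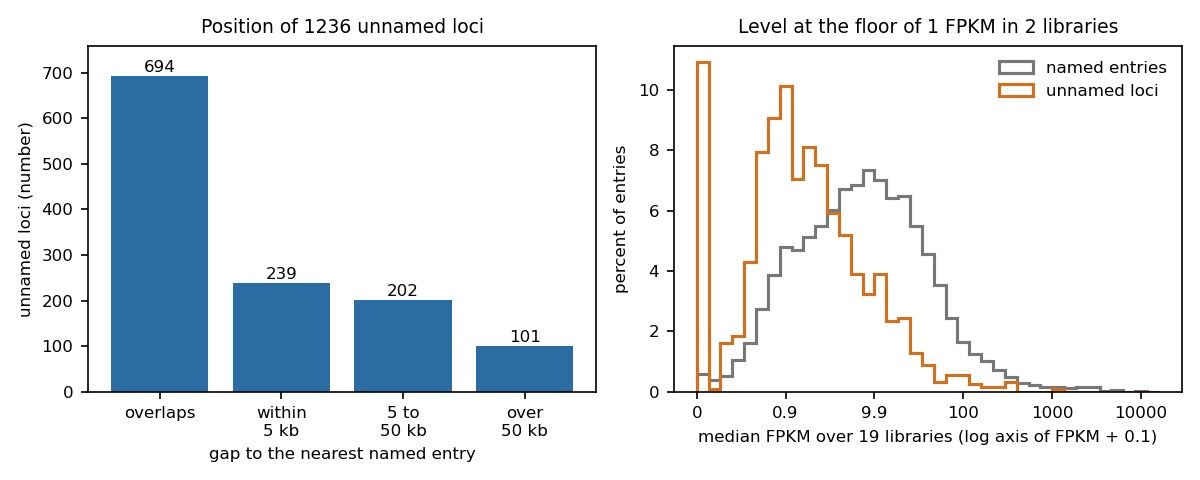
Left, number of members by their gap to the nearest named entry (694, 239, 202 and 101). Right, share of entries by median FPKM over the 19 libraries on a log axis of FPKM + 0.1, for the 1236 members (orange) and 13701 named entries at the floor (grey). The members peak near 1 FPKM with a further group listed at or near 0, and the named entries peak near 10.

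Detection was uneven across libraries. Of the members, 387 reached 1 FPKM in all 19 libraries and 223 (18%) in only 2 or 3. In 80 of those 223 the libraries came from both cultures. Members listed at exactly 0 in at least 1 library numbered 420 (34%), compared with 752 of 13701 named entries (5.49%), and an exact 0 can be a failed estimate. At higher levels, 312 members reached 10 FPKM in at least 1 library and 30 reached 100. Neighbouring members may belong to the same transcript. Joined across gaps of up to 10 kb they formed 1164 clusters, 64 of them with 2 or more loci and none with more than 4.

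A few loci carried much of the members' signal. XLOC_019037 (chr6:3150766-3151589, 86930 bp from Gm8579) ranged from 697 to 5005 FPKM with a median of 2207 in the LIF-withdrawal libraries, and from 288 to 520 with a median of 450 in RA. This 824-bp locus held 35.2% of all member FPKM in the CJ7 control, and its 2 sets of libraries did not overlap. In the RA libraries the leading member was XLOC_006011 (chr13:74537146-74546346, 23132 bp from Zfp72), named after its values were seen. It ranged from 555 to 837 FPKM in RA and from 68.2 to 101 in LIF withdrawal, again without overlap.

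Most of the other abundant loci overlapped a named gene and were seen in every library. XLOC_005478 overlaps Srsf5, a splicing factor, and ranged from 422 to 508 FPKM in RA and 208 to 414 in LIF withdrawal. XLOC_003051 overlaps Hnrnpab, which encodes a nuclear RNA-binding protein, and ranged from 217 to 355 and 114 to 221 FPKM, overlapping between the cultures by a narrow margin. The first was higher in every RA library than in any other library. XLOC_003227 overlaps Rnasek, a ribonuclease gene, at 178 to 282 and 160 to 365 FPKM. XLOC_022408 overlaps Nacc1, a transcriptional regulator of ESCs, at 145 to 183 and 85.2 to 157 FPKM, and followed it in rank across libraries (Spearman rho 0.92 over 12 LIF-withdrawal and 0.86 over 7 RA libraries). XLOC_011309 on chromosome 18 lies apart from any gene, 30896 bp from Galr1, and was at 195 to 228 and 124 to 165 FPKM, a narrow range in each culture and no overlap between them.

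Some loci were far above the named entries they overlap. XLOC_024084 (chr9:44140712-44144196) covers H2afx, the histone variant gene whose product marks DNA breaks, and was at 536 to 664 FPKM in RA and 193 to 398 in LIF withdrawal. The H2afx entry itself stayed at 0.0773 to 0.526 and 0 to 0.378 FPKM, and Dpagt1, a glycosylation gene whose entry the locus also overlaps, was at 9.35 to 21 and 17 to 31.2 FPKM. XLOC_009055 covers Dnajc28, a co-chaperone gene, and was at 225 to 360 and 136 to 358 FPKM while the Dnajc28 entry was at 0.514 to 1.65 and 0.323 to 1.26. It also overlaps Gart, a purine synthesis gene at 65.9 to 89.2 and 66.7 to 132 FPKM. Both loci were above every entry they overlap. XLOC_022824 (chr8:28385565-28425503) overlaps Eif4ebp1, whose product represses cap-dependent translation, and lay beside it in level: 212 to 367 against 151 to 258 FPKM in RA, and 370 to 578 against 277 to 454 FPKM in LIF withdrawal. Its rank followed that of Eif4ebp1 (rho 0.89 over 12 and 0.71 over 7 libraries).

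Culture divided many members, though a smaller share of them than of all entries. limma compared the 2 RA controls with the mean of the 4 LIF-withdrawal control groups on log2(FPKM + 1), over all 14942 entries at the floor. Of members, 230 (18.6%) were called higher in RA and 296 (23.9%) lower. Over all entries 30.3% were called higher and 29.5% lower, so both shares were below the background. The median log2 difference was -0.07 for members and 0.00 for all entries. Of the members, 98 (7.93%) reached 1 FPKM in RA libraries only and 215 (17.4%) in LIF-withdrawal libraries only, compared with 566 (4.13%) and 1008 (7.36%) of named entries. There were 7 RA and 12 LIF-withdrawal libraries to reach it in. These members passed the floor through 1 culture alone, so their culture differences rest on the values that made them members. Members also had lower levels than named entries, and the part of level in these shares was not tested.

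A stricter description asked for no overlap between the 7 RA and 12 LIF-withdrawal libraries and at least 2-fold between culture means (each + 0.1 FPKM). This held for 75 members (6.07%) higher in RA and 67 (5.42%) higher in LIF withdrawal, against 9.88% and 9.08% of all entries. These shares too were below the background. Leaving out 1 library gave 76 to 88 and 67 to 79 members. Of the 75, 52 overlapped a named entry, and the nearest named gene was separated the same way in 42, the other way in 2 and below the floor in 14. Of the 67, the nearest gene was separated the same way in 16, the other way in 1 and below the floor in 24.

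Among these loci without overlap, those with the largest folds toward RA lay at Skida1, Sdk2, Rai2, Brsk2 and Miat. XLOC_012047 (chr2:17968460-17969839) overlaps Skida1, a gene of the SKI and DACH family, and was at 59.8 and 73.9 FPKM in shNr2f1as, 47.7 in shSox21os, 92.5 and 78.2 in shPou3f3os and 67.8 and 58.1 in the controls. In LIF withdrawal it ranged from 0.24 to 2.61 FPKM with a median of 0.992. All RA libraries were far above all others. The log2 difference between control groups was 4.90 ± 0.27 (SE, adjusted p = 2.13e-07 by limma), and Skida1 itself went from 0.125 to 0.541 FPKM to 9.52 to 18.4.

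A pair of loci marked Sdk2, which encodes a cell adhesion protein of synapses. XLOC_003637 (chr11:113641477-113642554) overlaps the 3′ end of the Sdk2 entry and was at 26.6 and 24.9, 20.1, 29.8 and 30.1, and 23.4 and 21.8 FPKM in shNr2f1as, shSox21os, shPou3f3os and control RA libraries, and at 0.0528 to 1.72 FPKM in LIF withdrawal. XLOC_004583 (chr11:113637692-113640417), 1687 bp past the 3′ end, was at 21.4 and 19.4, 16.1, 22.8 and 25.2, and 17 and 13.7 FPKM in the same order, and at 0.0189 to 1.11 FPKM in LIF withdrawal. Neither locus overlapped between cultures. Their log2 differences were 3.98 ± 0.15 and 3.58 ± 0.12 (SE, adjusted p = 2.16e-08 and 1.61e-08 by limma). Each locus reached 1 FPKM in only 1 LIF-withdrawal library, so both passed the floor with the help of the RA libraries. Across the RA libraries the 2 loci followed each other (rho 0.96 over 7), which they did less across LIF withdrawal (rho 0.25 over 12), where both were low. They lie within 10 kb of each other and count as 1 cluster.

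XLOC_025376 (chrX:158214623-158216903) overlaps Rai2, a gene first described as induced by retinoic acid. Its levels were 24.6 and 17.9 FPKM in shNr2f1as, 15.8 in shSox21os, 24 and 26.2 in shPou3f3os and 30.4 and 24.4 in the controls, above the LIF-withdrawal range of 0 to 1.94 FPKM. The log2 difference was 4.35 ± 0.18 (SE, adjusted p = 3.17e-08 by limma), and Rai2 itself was at 1.6 to 3.29 and 0 to 0.326 FPKM. XLOC_021148 overlaps Brsk2, a kinase of neuronal polarity, and was at 2.78 to 3.86 against 0 to 0.133 FPKM. XLOC_017952 overlaps Miat, a noncoding RNA found in the nervous system, and was at 4.25 to 9.67 against 0 to 1.58 FPKM.

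Among loci whose cultures did not overlap, those with the largest folds toward LIF withdrawal lay at or near Gpcpd1, Bcl7c, B4galt6, Lars2, Ppp1r12a and Gm16724. XLOC_012821 (chr2:132351291-132356475) overlaps Gpcpd1, a gene of phospholipid breakdown, and was listed at 0 in all 7 RA libraries. Its LIF-withdrawal values were 0.667 in the control, 2.74 and 2.86 in shEvx1as, 2.84 in the control, 6.2 and 5.21 in shEVX1, 9.05 in the day-6 control, 9.94 in shLhx1os, 12 and 6.83 in the controls of day 5 and 6.5 and 8.62 in shFendrr. The lowest values were in CJ7 and in the day-4 controls. The locus reached the floor through LIF-withdrawal libraries alone, so its culture difference rests on the values that made it a member. The log2 difference was -2.34 ± 0.19 (SE, adjusted p = 2.42e-06 by limma), while Gpcpd1 overlapped between the cultures at 0.471 to 1.05 and 0.247 to 1.59 FPKM.

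XLOC_021055, 4250 bp past Bcl7c, a subunit gene of a chromatin remodeller, was at 1.81 to 6.43 FPKM in LIF withdrawal and 0 to 0.39 in RA. XLOC_002666, 358 bp past Ppp1r12a, which targets myosin phosphatase, was at 3.02 to 14.6 and 0.133 to 1.49 FPKM, and Ppp1r12a was likewise separated (25.6 to 44.6 against 16.9 to 23.8). XLOC_010735 on chromosome 18, 16127 bp before the glycolipid synthase gene B4galt6, was at 0.671 to 7.65 and 0 to 0.19 FPKM. XLOC_010014 on chromosome 17 was at 0.752 to 9.43 and 0 to 0.5 FPKM, with its highest values in the day-5 libraries. It overlaps 3 named entries, Gm16724 and Smchd1 among them. Smchd1 was separated the same way, at 3.93 to 17.5 against 1.71 to 3.62 FPKM, and was also highest at day 5. At all 4 loci the cultures were apart.

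XLOC_024538 (chr9:123215715-123371673) is 156 kb long (155959 bp) and overlaps Lars2, the mitochondrial leucyl-tRNA synthetase gene. Its LIF-withdrawal levels were 683 in the CJ7 control, 315 and 350 in shEvx1as, 644 in the CJ9 day-4 control, 453 and 462 in shEVX1, 393 in the day-6 control, 965 in shLhx1os, 667 and 339 in the controls of day 5 and 193 and 328 in shFendrr. Its RA levels were 30.4 and 24.2, 29.8, 20.2 and 24.9, and 21.2 and 10.4 FPKM in shNr2f1as, shSox21os, shPou3f3os and controls. The 2 sets did not overlap, and the log2 difference was -5.08 ± 0.30 (SE, adjusted p = 3.43e-07 by limma). Lars2 was also higher in LIF withdrawal, at 90.7 to 624 against 43.9 to 80.2 FPKM, and ranked like the locus (rho 0.92 over 12 and 0.89 over 7 libraries). XLOC_019037, on another chromosome, ranked like Lars2 in LIF withdrawal (rho 0.95) and not closely in RA (rho 0.29).

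A locus beside Dhrs3 and the gene went opposite ways. Dhrs3, known as a target and a brake of retinoic acid signalling, was at 8.8 to 20.1 FPKM in RA and 1.7 to 6.8 in LIF withdrawal, without overlap (log2 difference 2.02 ± 0.24 SE, adjusted p = 3.62e-05 by limma). XLOC_017344 (chr4:144444907-144482246), 484 bp before its 5′ end and named after its values were seen, was at 73.5 and 79 in shNr2f1as, 87.9 in shSox21os, 46.5 and 70.8 in shPou3f3os and 35.7 and 49 FPKM in the RA controls. In LIF withdrawal it ranged from 78.6 to 313 with a median of 175 FPKM, so the 2 sets overlapped slightly. The control groups differed by -1.67 ± 0.31 (log2, SE, adjusted p = 0.000802 by limma).

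**Figure D2:**
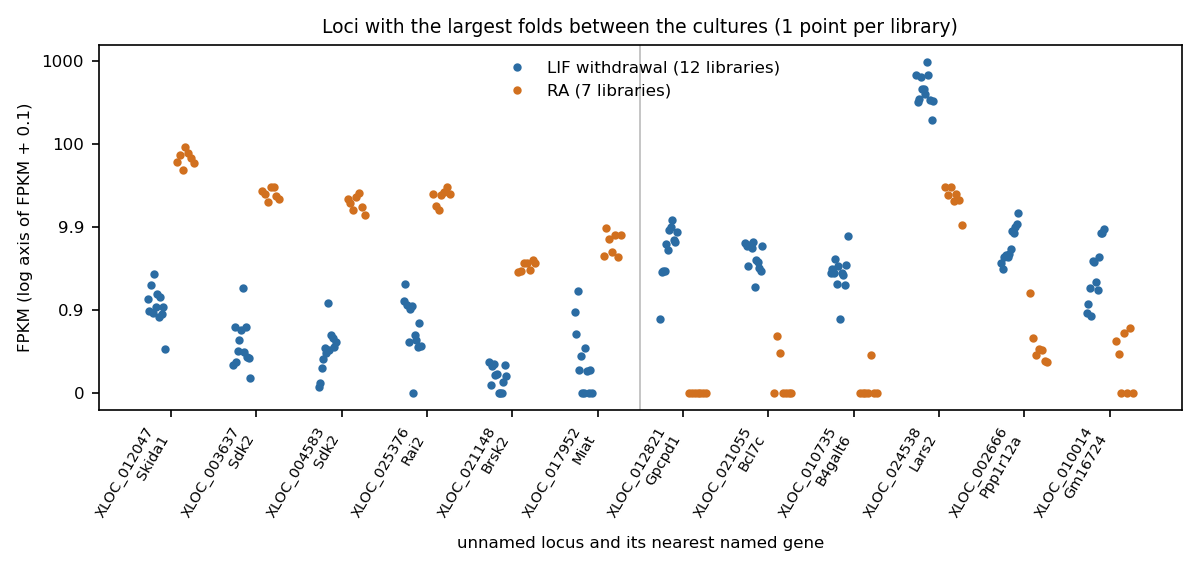
FPKM on a log axis of FPKM + 0.1 for the 6 members with the largest fold in each direction among those whose cultures did not overlap, 1 point per library, with the nearest named gene under each locus (orange, 7 RA libraries; blue, 12 LIF-withdrawal libraries). Left of the line RA is higher, as in XLOC_012047 at 47.7 to 92.5 against 0.24 to 2.61; right of it LIF withdrawal is higher, as in XLOC_012821, listed at 0 in all RA libraries.

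Few members lay at developmental regulators. The nearest named gene belonged to a list of developmental regulator families for 14 of 1236 members (1.1%). That gene was taken from all named entries, of which 383 of 26836 (1.4%) were such genes, a share close to that of the members. At the floor it was 269 of 13701 named entries (2%). No member lay within 100 kb of Evx1, Lhx1, Foxf1, Nr2f1, Sox21 or Pou3f3. The 6 loci set aside were not counted, and their distances to these genes are not given here. XLOC_013802 (chr2:105511265-105514605) overlaps Pax6, the eye and neural tube regulator, and was at 1.09 and 0.691, 0.566, 0.711 and 0.905, and 0.797 and 1.09 FPKM in shNr2f1as, shSox21os, shPou3f3os and control RA libraries. LIF-withdrawal libraries held 0 to 0.0381 FPKM, so the cultures did not overlap, with a log2 difference of 0.95 ± 0.13 (SE, adjusted p = 0.000123 by limma). The locus reached the floor through RA libraries alone, so this difference rests on the values that made it a member. Pax6 itself was at 45.5 to 89.8 and 0.0386 to 1.6 FPKM.

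XLOC_024499 (chr9:118396668-118398796), 1418 bp past the 3′ end of Eomes, a T-box gene of mesendoderm and trophoblast, was at 0.487 to 1.91 FPKM in LIF withdrawal and 0 to 0.251 in RA. The log2 difference was -0.87 ± 0.17 (SE, adjusted p = 0.00104 by limma). The locus reached the floor through LIF-withdrawal libraries alone. Eomes was at 6.88 to 147 and 0.184 to 2.31 FPKM and ranked with the locus in LIF withdrawal (rho 0.65 over 12). Over the 7 RA libraries rho was 0.04. Trophoblast and streak markers, Eomes among the former, moved with this difference, and their part in it was not tested.

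A pair of loci lay at Sall1, a zinc-finger gene of neural and kidney development. XLOC_022449 (chr8:91565208-91594851) overlaps Sall1 and was at 2.39 to 5.34 FPKM in RA and 0.386 to 2.76 in LIF withdrawal, overlapping slightly, with a log2 difference between controls of 1.12 ± 0.26 (SE, adjusted p = 0.00353 by limma). XLOC_023082, 1469 bp before Sall1, was at 2.59 to 9.22 and 1 to 13.4 FPKM, and did not pass (adjusted p = 0.087 by limma). XLOC_007193 overlaps Zic5, a neural plate gene, and was at 1.39 to 4.64 and 0.0745 to 2.18 FPKM. XLOC_009611 at the Notch ligand gene Dll1 reached 0.148 to 1.34 FPKM in RA and at most 0.412 in LIF withdrawal. The loci at Hoxb13, Gsc2, Wnt10a and Foxj3 (XLOC_004381, XLOC_008738, XLOC_001033 and XLOC_017097) stayed at or below 2.03 FPKM in all libraries.

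Days 4, 5 and 6 after LIF withdrawal were compared in the CJ9 controls only, with 1, 2 and 1 libraries, so no test was made. Members that differed at least 2-fold between days 4 and 6 (FPKM + 0.1), reached 2 FPKM in 1 of them and had both day-5 values in between numbered 36 rising (2.91%) and 41 falling (3.32%). Over all entries 6.71% rose and 3.19% fell by the same rule. The falling share was close to the background and the rising share below it. Of the 36, 26 overlapped a named entry.

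The largest rise was at Igf2, the fetal growth factor gene. XLOC_021965 (chr7:149836675-149838767) was at 8.38 FPKM at day 4, 93.9 and 125 at day 5 and 770 at day 6 in the controls, and Igf2 was at 69.5, then 453 and 748, then 2294. In the other LIF-withdrawal libraries the locus was at 8.23, 11.4 and 6.54 FPKM in the CJ7 control and shEvx1as libraries, 4.84 and 0.0948 in shEVX1, 155 in shLhx1os at day 6, and 0.000366 and 102 in shFendrr at day 5. In RA it was at or below 0.19 FPKM in all libraries but shPou3f3os replicate 2, at 11.6. The replicates of shFendrr, shEVX1 and shPou3f3os were thus far apart at this locus, while Igf2 was at 378 and 446, 62.7 and 45.6, and 164 and 101 FPKM in the same pairs.

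**Figure D3:**
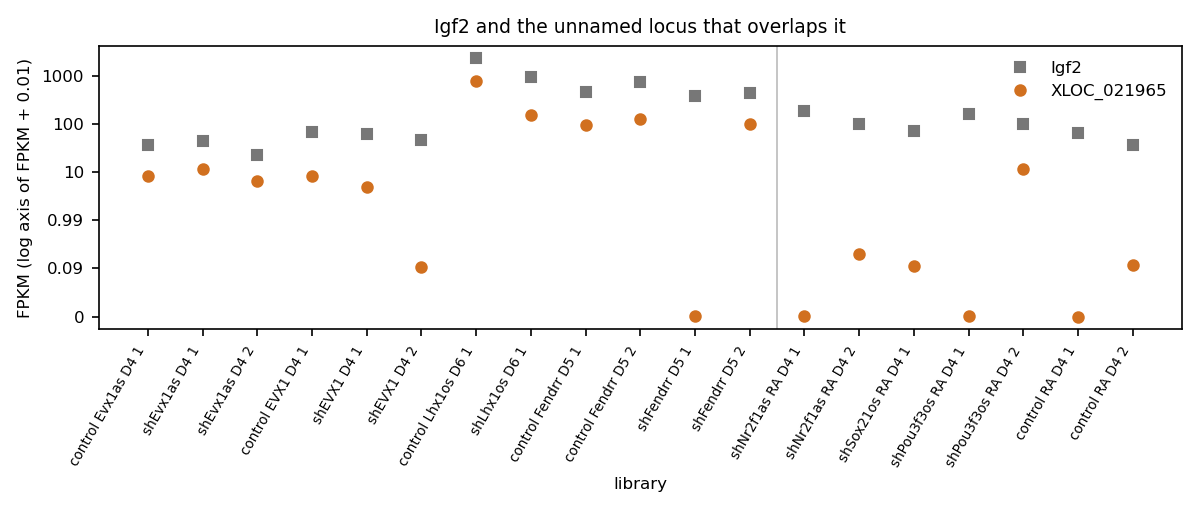
FPKM of Igf2 (grey squares) and of XLOC_021965, the locus that overlaps it (orange circles), in each of the 19 libraries on a log axis of FPKM + 0.01; LIF withdrawal is left of the line and RA right. Both are highest in the day-6 control, at 2294 and 770 FPKM, and in single libraries the locus is near 0 where Igf2 is not.

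XLOC_021156 (chr7:149845617-149846600), also at Igf2, was listed at 0 at day 4, at 1.89 and 0.529 FPKM at day 5 and at 3.42 at day 6. XLOC_010143 on chromosome 17, at Gm3435, was at 0.205, then 2.75 and 3.88, then 12.5 FPKM. XLOC_005963 on chromosome 13 was listed at 0 at day 4, at 0.882 and 0 at day 5 and at 4.57 at day 6, but the day-4 CJ7 control held 4.04. The 4 largest falls ended at a listed 0 in the 1 day-6 library. XLOC_011019 on chromosome 18 went from 5.22 through 2.5 and 0, XLOC_003502 on chromosome 11 from 3.14 through 0 and 1.65, XLOC_006495 on chromosome 13 from 2.35 through 2.25 and 0.825, and XLOC_021070 at Ate1, an arginyltransferase gene, from 2.33 through 1.59 and 1.29 FPKM.

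Replicates differed more at members than at named genes, and this sets how the knockdown values read. Within the 7 groups of 2 libraries, 57 to 124 members (4.61% to 10.03%) were at least 2-fold apart with 1 library over 2 FPKM, compared with 0.61% to 5.49% of named entries at the floor. Counting only entries over 2 FPKM, the shares were 10.2% to 20.8% and 0.81% to 6.87%. Loci at 1 FPKM or more in 1 replicate and under 0.05 in the other made up 2.91% to 4.45% of members and 0.08% to 0.26% of named entries. The ranges of this last measure did not touch. Members had lower levels, and the part of level in this difference was not tested.

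**Figure D4:**
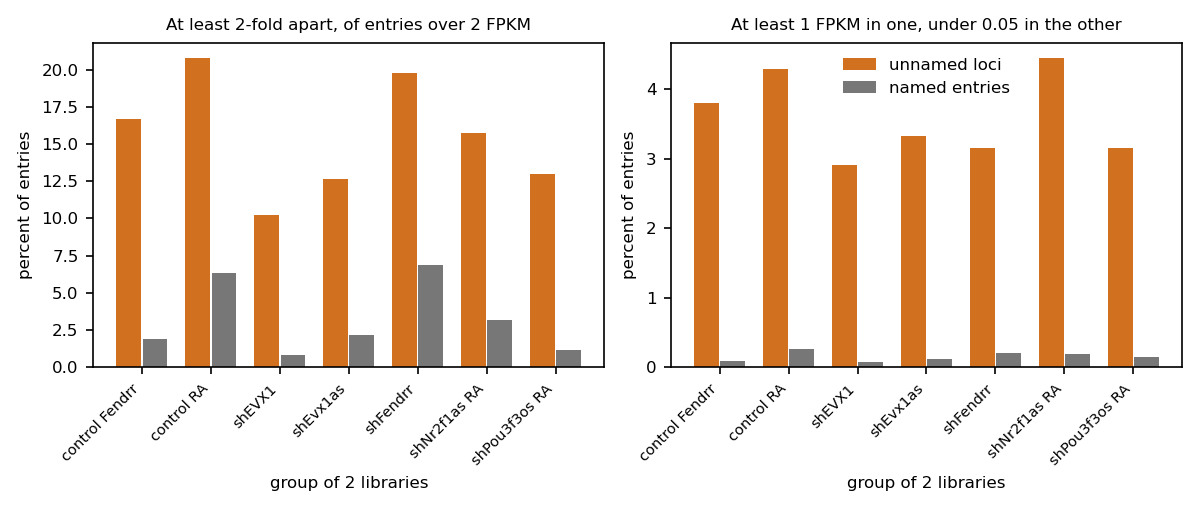
Share of members (orange) and of named entries at the floor (grey) that differed between the 2 libraries of each group. Left, at least 2-fold apart, of entries over 2 FPKM; right, at least 1 FPKM in 1 library and under 0.05 in the other, where members are at 2.91% to 4.45% and named entries at 0.08% to 0.26%.

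The examples at high level that follow were chosen after their values were seen. XLOC_020172 near Adipor2 was at 22.7 FPKM in RA control 1 and 8.17e-06 in RA control 2. XLOC_006106 near Fam159b was listed at 0 in day-5 control 1 and at 11.8 in control 2. XLOC_007749 and XLOC_006961, the latter inside Haus4, a mitotic spindle gene, were at 12.7 and 11.7 FPKM in 1 replicate of a group and listed at 0 in the other.

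In the shEvx1as comparison 1 member, and no other entry, passed the test, and it was lower in the knockdown. XLOC_010621 (chr17:83944375-83955584, 29713 bp from the potassium channel gene Kcng3) was at 3.25 FPKM in the control and 0.0084 and 0.122 in shEvx1as. Among the other 16 libraries the day-6 control held 2.44 FPKM and none of the rest exceeded 0.0357. The log2 change was -2.0 ± 0.17 (SE, adjusted p = 0.00171 by limma). It was the 1 call of 14942 entries (0.00669%) and passed without either knockdown library (adjusted p = 0.00563 to 0.0111), where 2 members were called. No member or other entry was called higher, 107 members (8.66%, against 4.38% of all entries) had an unadjusted p under 0.05, and the median log2 change was 0.09 for members and 0.05 for all entries. The control arm was 1 library, and this locus reached the floor through that library and the day-6 control.

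In the shEVX1 comparison again 1 member alone was called, and lower. XLOC_001584 (chr10:5037276-5040848, 110986 bp past Syne1, which encodes a nuclear envelope protein) was at 1.64 FPKM in the control, listed at 0 in both shEVX1 libraries, and at 2.7 in the day-6 control and 0 in the other 15 libraries. The log2 change was -1.40 ± 0.16 (SE, adjusted p = 0.0429 by limma), again 0.00669% of entries called lower. It reached the floor only through this control and the day-6 control. Without shEVX1 replicate 1 or replicate 2 the adjusted p was 0.558 and 0.241 and no member was called. No entry was called higher by limma, and 73 members (5.91%, against 3.32% of all entries) had an unadjusted p under 0.05.

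In the shFendrr comparison 3 members were called higher (0.243%, against 0.0535% of all entries) and none lower, where 14 of all entries were. At an unadjusted p under 0.05 were 110 members, 8.9% against 7.03% of all entries. XLOC_022921 (chr8:59663582-59696499) lies 103281 bp before Hand2, a transcription factor gene of heart and limb mesoderm. It stood at 8.15 and 10.6 FPKM in shFendrr, with 1.02 and 2.45 in its controls, without overlap (log2 change 1.96 ± 0.24 SE, adjusted p = 0.0149 by limma). Hand2 itself was at 3.31 and 3.5 in controls and 2.39 and 0.803 in shFendrr (adjusted p = 0.464). The same locus was at 1.59 in the CJ7 control and 5.89 and 6.18 FPKM in shEvx1as (adjusted p = 0.729).

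The other 2 lay just before a gene. XLOC_021645 (chr7:88051013-88051924, 1056 bp before the neuropeptide gene Nmb) was at 6.58 and 2.54 FPKM in shFendrr and listed at 0 in both controls (log2 change 2.37 ± 0.37 SE, adjusted p = 0.0415 by limma). XLOC_001935 (chr10:80729812-80730808, 109 bp before Apba3, whose promoter is printed above) was at 2.28 and 2.2 FPKM and listed at 0 in the controls (1.70 ± 0.27, adjusted p = 0.0474). It was also at 1.1 and 0.943 in shEvx1as and 1.16 in 1 shEVX1 library, and at 0 in the other 14. Apba3 stayed within 13.9 to 20.6 FPKM in all 19. All 3 calls were lost without control replicate 1 or without shFendrr replicate 2, when 1 and 0 members were called, and without shFendrr replicate 1 there were 14. Without control replicate 2, 2 of these 3 were lost and 3 members were called in all.

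In the shLhx1os comparison, with 1 library an arm and no test, 107 members (8.66%) were at least 2-fold higher and 69 (5.58%) lower, with 2 FPKM reached in 1 of them. Over all entries the shares were 5.19% and 6.61%. Both directions together came to 176 members (14.2%), more than the 57 to 124 that differed by the same measure between the 2 libraries of a replicated group. Over all entries it was 1763 (11.8%), with 141 to 876 between replicates. All the largest differences involved a listed 0. Higher were XLOC_011019 at 7.52, XLOC_024338 at 5.2, XLOC_004991 at 4.87 and XLOC_017113 beside the Myc-family gene Mycl1 at 3.65 FPKM, each 0 in the control. Lower were XLOC_019654 from 2.94, XLOC_006456 from 2.87, XLOC_001584 from 2.7 and XLOC_006961 from 2.64 FPKM, each 0 in shLhx1os.

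The shNr2f1as, shSox21os and shPou3f3os comparisons share the same 2 RA controls. Those controls differed from the 5 knockdown libraries in general ways: 712 and 678 members reached 1 FPKM against 730 to 768, 190 and 194 were listed at 0 against 150 to 172, and the median member level was 1.32 and 1.21 FPKM against 1.48 to 1.57. Over all members, 159 (12.9%) were higher in all 5 knockdown libraries than in both controls and 78 (6.31%) lower. Over all entries it was 15.8% and 12.6%. Their part in the calls below was not tested, and the values of each comparison are given side by side.

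In shNr2f1as 11 members were called higher (0.89%, against 0.422% of all entries) and none lower, where 38 of all entries were. At an unadjusted p under 0.05 were 194 members, 15.7% against 18.1% of all entries. In 9 of the 11 all 5 RA knockdown libraries were above both controls. Without shNr2f1as replicate 1 or 2, 2 and 7 members were called, and without RA control 1 or 2, 45 and 11. In shSox21os, with 1 knockdown library, 1 member was called higher (0.0809%, against 0.0468%) and none lower, where 3 of all entries were. At an unadjusted p under 0.05 were 159 members (12.9%, against 11.4% of all entries), and without RA control 1 or 2 the calls were 33 and 7. In shPou3f3os 37 members were called higher (2.99%, against 1.6%) and 5 lower (0.405%, against 0.716%), with 238 at an unadjusted p under 0.05 (19.3%, against 20.8% of all entries). Of these 42, 32 had all 5 knockdown libraries above both controls, and the 5 lower calls had all 5 below both. Without shPou3f3os replicate 1 or 2 there were 0 and 1 calls, and without RA control 1 or 2 there were 107 and 8. Of the members called in shNr2f1as 3 of 11, and in shPou3f3os 4 of 42, reached the floor only with the help of the higher arm.

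XLOC_012997 (chr2:161167429-161172534, 9440 bp from Gm14241) was called in both shNr2f1as and shSox21os. The 2 shNr2f1as libraries held 6.37 and 4.28 FPKM and the shSox21os library 8.79, and it was listed at 0 in the other 16 libraries. The shNr2f1as change was 2.64 ± 0.17 (log2, SE, adjusted p = 9.85e-05 by limma) and the shSox21os change 3.29 ± 0.20 (adjusted p = 8.18e-05). With 1 library of its comparison left out in turn, the shNr2f1as change was 2.4 to 2.88. Without either RA control the shSox21os change was 3.29, and its single knockdown library could not be left out. XLOC_012997 reached the floor through the shNr2f1as and shSox21os libraries alone. Both calls therefore rest on the values that made it a member.

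A group of longer or abundant loci was low in both RA controls and higher in every RA knockdown. XLOC_012500 (chr2:84345597-84350520, at Gm13710) was at 39.5 and 35.1 FPKM in shNr2f1as, 36.3 in shSox21os, 30.9 and 39 in shPou3f3os, and 14.6 and 7.9 in the controls. The 5 knockdown libraries were close together and the controls apart and lower. Its changes were 1.70 ± 0.23 in shNr2f1as (adjusted p = 0.017 by limma) and 1.60 ± 0.23 in shPou3f3os (adjusted p = 0.0243), and 1.66 in shSox21os (adjusted p = 0.0773). LIF-withdrawal libraries held 19.9 to 58.3 FPKM, so the RA controls were below all other libraries.

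XLOC_004523, at the potassium channel gene Kcnh6, was at 30.2 and 24.3, 28, and 23.1 and 31.7 FPKM in shNr2f1as, shSox21os and shPou3f3os, and at 12.4 and 6.25 in the controls. XLOC_015159 (443522 bp, at the small GTPase gene Rap2b) was at 8.1 and 8.12, 7.95, and 7.34 and 8.32 FPKM, and at 4.51 and 2.44 in the controls. XLOC_021927 (480674 bp, at the glutaredoxin gene Glrx3) was at 44.1 and 44.3, 42.1, and 42.9 and 43.6 FPKM, and at 19.2 and 5.55. In each the controls lay below all 5, and control 2 was lower than control 1. Changes in shPou3f3os were 1.51 (adjusted p = 0.0275 by limma), 1.02 (0.0302) and 1.94 (0.0389), and in shNr2f1as 1.51 (0.0426), 1.07 (0.0433) and 1.97 (0.0536). The 4 loci ranked alike across LIF withdrawal: against XLOC_012500, rho was 0.92, 0.9 and 0.89 over 12 libraries. Over the 7 RA libraries rho was 0.96, 0.82 and 0.71. The loci were grouped for low values in both RA controls, which fixes part of the RA ranks. The RA values therefore do not show whether the loci rank alike.

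**Figure D5:**
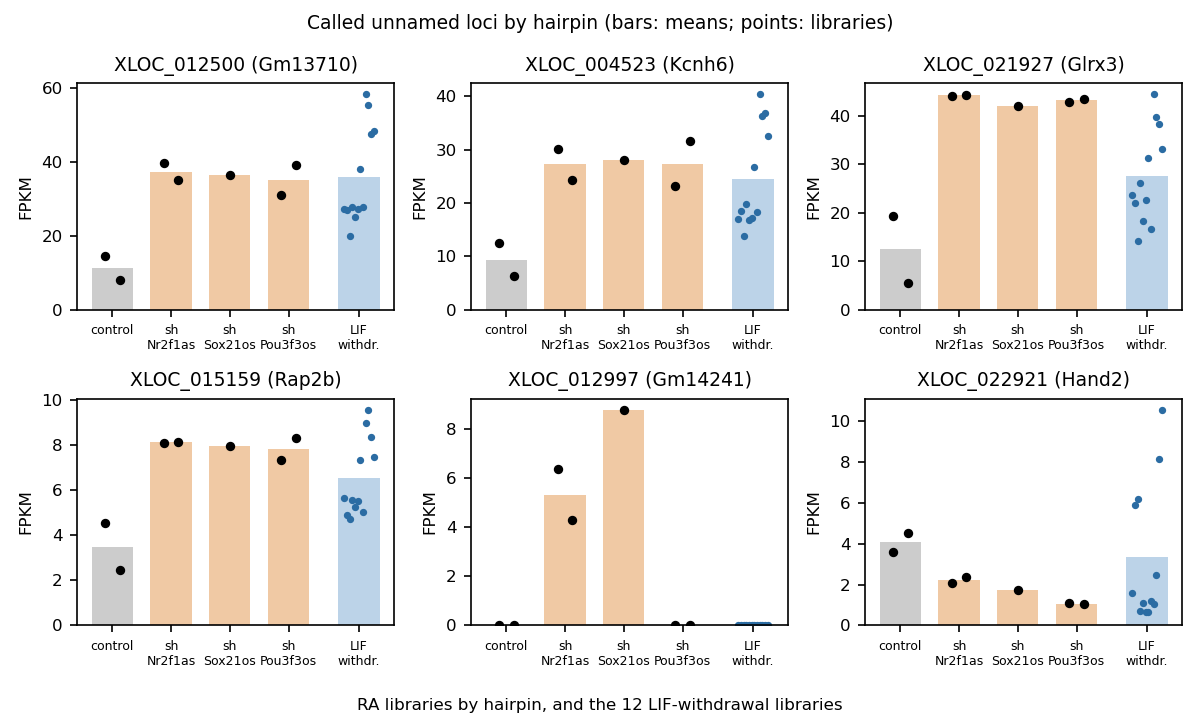
FPKM of 6 members called in an RA comparison, by hairpin; bars are group means, points single libraries (black, RA; blue, the 12 LIF-withdrawal libraries). Both controls are below every knockdown library in the first 4 panels, XLOC_012997 is above 0 only in shNr2f1as and shSox21os, and XLOC_022921 is lower in the 5 knockdown libraries than in the controls.

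Other shNr2f1as calls lay at Axin1, Cilp2, Tmem87a and Itm2c. XLOC_010224 (chr17:26273600-26275626), 5 bp before Axin1, a scaffold gene of the Wnt pathway, was at 1.22 and 1.84 FPKM in shNr2f1as and listed at 0 in the other 5 RA libraries (1.33 ± 0.25, log2, SE, adjusted p = 0.0463 by limma). Axin1 ranged over 25.7 to 33.4 FPKM in RA. XLOC_022967, 1596 bp before the cartilage gene Cilp2, was at 6.03 and 2.73 against 1.16 and 0.829 FPKM. XLOC_013870 at Tmem87a was at 3.52 and 4.77 against 0.864 and 1.34 FPKM, and was also called in shPou3f3os at 4.32 and 2.63 (log2 change 1.07, adjusted p = 0.0397 by limma). XLOC_001085 at Itm2c was at 1.43 and 1.08 against 0 and 0.327 FPKM. In all 4 the shNr2f1as libraries were above the controls, as the rule for naming loci required. At XLOC_022967, XLOC_013870 and XLOC_001085 the shSox21os and shPou3f3os libraries were above both controls too. XLOC_010224 reached the floor through the 2 shNr2f1as libraries alone, and XLOC_001085 only with their help. Of the 8 largest shNr2f1as calls by log2 change, 7 were lost without shNr2f1as replicate 1, 5 without replicate 2, 3 without control 1 and 5 without control 2.

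In shPou3f3os the largest rise was at XLOC_001668 (chr10:23446150-23467178, 37811 bp past the ribosomal protein gene Rps12). It was at 6.22 and 14.8 FPKM in shPou3f3os, listed at 0 in both controls, at 2.8 and 0 in shNr2f1as and 11.6 in shSox21os, and at 2.75 to 14 in LIF withdrawal (log2 change 3.41 ± 0.70 SE, adjusted p = 0.0397 by limma). XLOC_012342 at Baz2b, a chromatin reader gene, was at 16 and 12.6 against 3.96 and 4.08 FPKM (1.60 ± 0.30, adjusted p = 0.033), and Baz2b rose with it (0.64, adjusted p = 0.0412). At both loci the shPou3f3os libraries were above the controls, as the rule for naming loci required. XLOC_012342 was also above both controls in shNr2f1as, at 11.3 and 8.97 FPKM, and in shSox21os, at 14.9. XLOC_009357 near BC027231 was at 3.36 and 2.61 against 0.471 and 0.0754 FPKM. XLOC_020382 at Cacng8, which encodes an auxiliary glutamate receptor subunit, was at 5 and 4.15 against 0 and 1.55 FPKM. XLOC_006144 was at 1.9 and 4.63 against 0 and 0.701. XLOC_016206 was at 2.4 and 1.66 against values under 0.0001 FPKM, which, like a listed 0, can be failed estimates. In shNr2f1as and shSox21os, XLOC_009357 (0.785 and 1.39, 0.743) and XLOC_020382 (4.5 and 7.37, 4.08) were also above both controls. XLOC_006144 was at 1.91 and 0.77, and 0, and XLOC_016206 under 0.0001 FPKM.

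A pair of loci before BC107364, on chromosome 3 and named after their values were seen, rose together with that gene. XLOC_015346, 64 bp before it, was at 2.43 and 2.11 against 0.176 and 0.459 FPKM (1.32 ± 0.17, log2, SE, adjusted p = 0.0126 by limma). XLOC_014706, 3951 bp before it, changed by 1.05 ± 0.16 (adjusted p = 0.0243) and BC107364 by 1.15 (adjusted p = 0.0372). The nearest named gene at the floor was itself called for 4 of the 42 members called in shPou3f3os, each with the same sign. BC107364 counts for both loci of this pair, and the other genes were Fbxl20 and Baz2b. Those 2 overlap their member, so reads may be shared. Of all entries 1.6% were called higher in this comparison. For members called in the other 5 knockdown comparisons the nearest gene was never called.

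The 5 falls in shPou3f3os included loci before Tshz3 and Hand2 and at Dact2. XLOC_020618 (chr7:37481257-37482637), 500 bp before Tshz3, was at 0.783 and 0.446 FPKM in shPou3f3os, 1.27 and 1.14 in shNr2f1as, 0.584 in shSox21os and 1.63 and 2.85 in the controls, and at 0 to 0.292 in LIF withdrawal (-0.99 ± 0.21, log2, SE, adjusted p = 0.044 by limma). Tshz3 was at 4.63 and 4.61 against 7.02 and 7.47 FPKM without passing (-0.55, adjusted p = 0.0749). In RA against LIF withdrawal both were higher in RA, the locus by 1.62 (adjusted p = 2.43e-05 by limma). XLOC_020618 reached the floor through RA libraries alone, so this difference rests on the values that made it a member.

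XLOC_009601 at Dact2, which binds Dishevelled in Wnt signalling, was at 10.3 and 13.3 against 22.8 and 24.9 FPKM (-0.96 ± 0.20, log2, SE, adjusted p = 0.0409 by limma), with Dact2 at -0.70 (adjusted p = 0.131). XLOC_022921 before Hand2, higher in shFendrr, was at 1.1 and 1.04 against 3.61 and 4.52 FPKM (-1.29 ± 0.24, adjusted p = 0.0298), and at 2.07 and 2.38 in shNr2f1as and 1.74 in shSox21os. XLOC_016373 near Camk2n1 was listed at 0 in both shPou3f3os libraries against 1.16 and 1.1 FPKM, and XLOC_018325 at 0 against 0.554 and 1.58. In all 5 the controls were above the shPou3f3os libraries, as the rule for naming loci required. The controls were also above the shNr2f1as and shSox21os libraries in all 5. XLOC_009601 was at 16.6 and 10.6 FPKM in shNr2f1as and 19.5 in shSox21os. XLOC_016373 was listed at 0 in both shNr2f1as libraries and at 0.31 in shSox21os, and XLOC_018325 at 0 in every RA knockdown library. XLOC_016373 reached the floor through the 2 RA controls alone. For 16 of the shPou3f3os calls above, without the pair before BC107364, libraries were left out in turn. Each was lost without either shPou3f3os library, and so were 15 without RA control 2 and 4 without control 1, with adjusted p up to 0.264.

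Ranks across libraries tied members to the gene they overlap more than to distant ones. The median Spearman rho of a member with its nearest named entry at the floor was 0.47 for overlapping loci, 0.26 within 5 kb, 0.13 at 5 to 50 kb and 0.09 beyond, over the 12 LIF-withdrawal libraries. Named entries with their nearest named entry gave 0.38, 0.21, 0.15 and 0.12. Over the 7 RA libraries the medians were 0.29, 0.13, 0.18 and 0.07 for members, against 0.21, 0.11, 0.11 and 0.11. These libraries differ in day, hairpin and depth, which all pairs share, and reads of an overlapping pair may be counted in either entry.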

How the data were processed

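The 19 libraries were made from bead-purified mRNA with a stranded kit, per the labels' protocols. The authors deposited 1 table of FPKM values for all libraries. The submitters' processing notes name CASAVA, TopHat2 2.0.11 and the builds mm9 and mm10. The sources used here do not name the assembler or quantifier, nor whether strand was used. Only 12.3% of 12380 named entries overlap their gene in GRCm38, so positions are read as mm9. No mm9 genome was used here, and gene strands were taken by symbol from GENCODE M21.

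Levels were analysed as log2(FPKM + 1) with limma 3.58.1 in R 4.3.3: 1 mean per group, 12 groups (7 of 2 libraries, 5 of 1, 7 residual degrees of freedom), a trended prior, two-sided tests and Benjamini-Hochberg adjustment over the 14942 entries at the members' floor (1 FPKM in 2 libraries), at 0.05. Where a group is a single library, its spread is taken from the other groups. Fold changes on this scale understate changes of low loci. The model was tested on simulated data. Other summaries used Python 3.11.15, pandas 2.3.3 and scipy 1.17.1. Total FPKM per library was 559050 to 655315. Reads were not recovered, so counting intervals are not given.

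Members and lists were chosen with earlier results of these data known. Loci named were those called with libraries that do not overlap (up to 8 per direction by log2 change), the 10 with the highest median, the 6 largest culture folds and the 4 largest day and shLhx1os folds per direction, up to 12 at developmental regulators, any within 100 kb of the targets' neighbours, and the 3 on each side of the floor. Alternatives were the pseudocount, the floor, the prior, library scaling, the samples modelled, a replicate block and leaving out libraries. Deviations of same-numbered knockdown and control libraries had an r of 0.35 for Fendrr, 0.303 for Nr2f1as and -0.019 for Pou3f3os. They were thus shared in part for Fendrr and Nr2f1as. The labels do not say whether the numbers pair samples, and the main fit did not pair them.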

Additional observations from a re-analysis of the deposited data

How the results depend on the processing

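Calls in the knockdown comparisons depended on the settings more than culture calls. With a pseudocount of 0.1, members called numbered 0 for Evx1as, EVX1 and Fendrr and 2 for Sox21os. With a floor of 5 FPKM they numbered 0 for Evx1as, 0 for EVX1, 1 for Fendrr, 23 for Pou3f3os and 277 for culture, where fewer members were tested. With no floor they numbered 1 for Nr2f1as, 3 for Sox21os and 12 for Pou3f3os, and with a prior without a trend 2 for Sox21os. With each experiment modelled alone they numbered 0 for Evx1as, EVX1, Fendrr, Nr2f1as and Pou3f3os and 7 for Sox21os, from fewer libraries. Taking both day-4 controls as 1 group gave 0 for Evx1as and EVX1. Leaving out 1 library gave 2 for Evx1as either way, 0 for EVX1 either way, 0 to 14 for Fendrr, 2 to 45 for Nr2f1as, 7 to 33 for Sox21os and 0 to 107 for Pou3f3os. The replicate block, which takes the numbers to pair samples as the labels do not say, gave 31 for Nr2f1as, 73 for Pou3f3os, 3 for Fendrr and 1 for Sox21os. Asking for 4-fold left 37 members separated as higher in RA and 43 as higher in LIF withdrawal, and controls only gave 145 and 214. A floor of 5 FPKM in shLhx1os gave 51 higher and 29 lower. Rescaling to equal totals kept the 30 calls of the naming rule, and no result recomputed under the alternatives reversed. Where a count moved, the cause was not tested except for the fewer members or libraries named. Low level limits most members, whose median level had a median of 1.28 FPKM.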

Other observations

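Longer members were few. Of the 1236, 45 were 100 kb or longer. In the shPou3f3os comparison 7 of these 45 (15.6%) were called, against 42 of all members (3.4%) and 346 of 14942 entries. In shNr2f1as it was 1 of 45 (2.22%), against 11 members (0.89%) and 101 entries. All 5 RA knockdown libraries lay above both RA controls in 8 of the 45 (17.8%). That share was close to the 15.8% of all entries, and over all members it was 12.9%. Members that sat together in a cluster had a median Spearman rho of 0.26 over the LIF-withdrawal libraries (82 pairs) and 0.11 over the RA libraries (79 pairs). The 2 loci before BC107364 were closer than this in RA (rho 0.89) and had a rho of 0.4 in LIF withdrawal. The 2 loci at Sall1 had a rho of 0.25 in LIF withdrawal and -0.36 in RA. Loci listed at 0 in 10 or more libraries numbered 129.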
